A study of Danio rerio with 6 samples.

Results

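RNA of GFP-positive cells sorted from Tg(Fli1:EGFP) zebrafish embryos at 24 hours post fertilisation (hpf) was compared with RNA of whole embryos of the same age. Both samples were chosen by their titles, and they are 2 of the 6 single-colour arrays of a study of vascular development. The other 4 arrays hold whole embryos at 18 hpf, Fli1 cells at 18 and 28 hpf, and GFP-positive cells of a Tg(Flk:GRCFP) line at 18 hpf by title and series design, although the sample description of that array reads 24 hpf. All fish were kept at 28 degrees without treatment. Every array, that of the Flk cells included, has an extraction protocol that mentions Tg(Fli1:EGFP) fish. That text therefore does not settle the line of an array, and whether the whole embryos carried the reporter is not certain from the labels. The sorting gate, the number of embryos and the purity of the sorted cells are not given in the sources used here. Sorted cells had been dissociated and passed through a flow sorter, and whole embryos are labelled only as total RNA, so dissociation and cell type cannot be told apart.

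Fli1 is an ETS-family transcription factor that acts in the mesoderm giving rise to blood vessels and blood. In Tg(Fli1:EGFP) fish, regulatory sequence of the gene drives EGFP in endothelial cells, in part of the early blood lineage and in the neural crest of the pharyngeal arches. At this age the first wave of erythrocytes, formed in the intermediate cell mass, enters circulation, primitive myeloid cells spread from the front of the embryo, and the main trunk vessels carry flow. A whole embryo also holds the tissues that the reporter should leave out, among them the epidermis with its outer periderm, the yolk with its surrounding layer, somitic muscle, lens and most of the nervous system.

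Each group was 1 array, so no difference below has a replicate check and no p-value is given. A level is the background-corrected, quantile-normalized intensity of a spot, and it was compared between arrays for the same probe, never between probes. A probe counted as above background where it exceeded the 95th percentile of the Arabidopsis control spots of its array. Over the 173 control spots the log2 difference between the 2 arrays had an SD of 0.377 and a median of -0.26. These 2 values were taken after background correction but before quantile normalization, so they are not on the scale of the levels. Probes above background made up 32.5% of 13999 on the Fli1 array and 39.4% on the whole-embryo array at 24 hpf, against 24.7% to 42.6% on the other 4 arrays. A gene or unnamed probe was called higher or lower where the 2 arrays differed by 2-fold or more and the brighter one was above background. Where the dim side lay below background, or the bright side was saturated, the fold is given as a bound ("at least"), taken against the lowest level above background on that array (307 for Fli1 cells, 267 for whole embryos) or the dim level itself where that is higher. Such a bound can be under 2 for a gene that was called.

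The comparison covered 4788 genes and unnamed probes that exceeded background on 1 or both of the 2 arrays. Above background on both were 3188, in Fli1 cells alone 484 and in whole embryos alone 1116. Of the 4788, 259 were called higher in Fli1 cells (5.41%) and 467 lower (9.75%). Named genes made up 111 of the higher and 293 of the lower. As read, the lower side was also the more extreme. Lower by 4-fold or more were 106 genes and probes against 38 higher, and by 8-fold or more 34 against 9. These counts take the difference as read, also where the dim side lay below background and only a bound is known. The gene fgb, for example, counts with a log2 difference of -3.35, although its bound is at least 5.18-fold. The median log2 difference of all 4788 was 0.11, and the 5th and 95th percentiles were -1.41 and 1.04. Among the lower, 306 of 467 were below background in Fli1 cells, and among the higher, 98 of 259 were below background in whole embryos, so their folds are bounds. Where both arrays had to be above background, the calls were even, at 161 higher and 161 lower. The balance of the calls also varied with the scaling: 35.7% of called genes and probes were higher under quantile normalization and 23.3% with the authors' scaled value table, under which the median of all moved to -0.05.

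**Figure D1:**
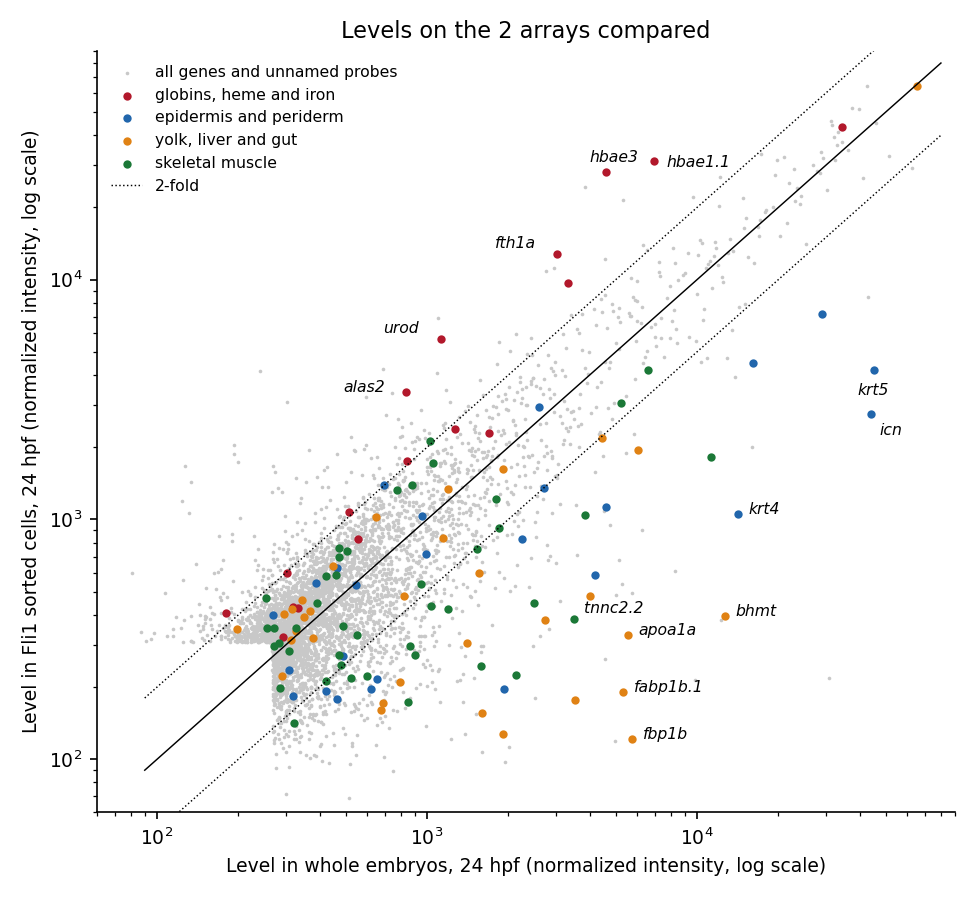
Level of each gene or unnamed probe on the whole-embryo array (horizontal axis) and the Fli1 array (vertical axis) at 24 hpf, both as normalized intensity on a log scale, with 1 point for each of 4788. The solid line marks equal levels and the dotted lines a 2-fold difference. The globin, heme and iron genes lie on or above the solid line, while many epidermal, yolk and muscle genes lie below the lower dotted line.

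Of the red cell genes, those of heme synthesis and iron supply had the highest share of higher members of any list (63.6%), while globins and erythroid regulators were called in smaller part. Embryonic globins carry oxygen in the first red cells. Of 6 globin genes measured, 2 were called higher (33.3%, beside 5.41% of all genes). The 5 that were not saturated on both arrays all had a difference above 0 (median log2 difference 0.97). The embryonic alpha globin hbae3 had a level of 28089 in Fli1 cells and 4602 in whole embryos at 24 hpf, which is 6.1-fold higher. At the other stages hbae3 stood at 455 in whole embryos and 6602 in Fli1 cells at 18 hpf, 41150 in Fli1 cells at 28 hpf and 2347 in Flk cells. The level thus was lowest in whole embryos at 18 hpf and highest in Fli1 cells at 28 hpf, and whole embryos at 24 hpf lay between the Flk cells and the Fli1 cells at 18 hpf. A separate hbae3 probe had a log2 difference of 2.94 at 24 hpf. The neighbouring alpha globin hbae1.1 had the same order in Fli1 cells and whole embryos of each stage, at 31239 against 6898 at 24 hpf and 7545 against 387 at 18 hpf. The beta globin hbbe1 was saturated on both 24 hpf arrays, so its ratio is unknown there, while at 18 hpf it read 29031 in Fli1 cells and 1274 in whole embryos without saturation. The adult-type globins hbba1 (596 and 304), hbaa1 (2302 and 1694) and hbba2 (323 and 292) were not called. Globin genes are close copies of each other and their probes may share transcripts, so single members are uncertain.

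Heme synthesis and iron supply genes were called higher in 7 of 11 measured members (63.6%, beside 5.41% of all genes) and none was called lower. All 11 differences were above 0 on the brightest probe of each gene (median log2 difference 1.07, beside 0.11 for all genes). At 18 hpf 3 of the 11 were higher in Fli1 cells and none lower (median log2 difference 0.45). Of all genes, 10.9% were higher and 14.4% lower there. Several steps of the pathway could be followed in order. The erythroid form of the first enzyme, alas2, had a level of 3398 in Fli1 cells and 833 in whole embryos (4.08-fold), whereas the form used by all tissues, alas1, had 827 and 556 (1.49-fold) and was not called. The next enzyme, alad, was 2.09-fold higher at 1757 against 841, and hmbsa, which follows it, stood at 431 and 319 and was not called. The decarboxylase urod was 5.02-fold higher at 5660 against 1128. Ferrochelatase, fech, which inserts the iron, was at 407 in Fli1 cells and below background in whole embryos (at least 1.53-fold). Across the other arrays, alas2 was below background in whole embryos at 18 hpf and reached 8844 in Fli1 cells at 28 hpf, while urod was highest in Fli1 cells at 24 hpf and stood at 2003 in Fli1 cells at 28 hpf.

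The ferritins, which store iron, were part of the same list. The heavy chain gene fth1a stood at 12730 in Fli1 cells and 3034 in whole embryos (4.2-fold), but its other probe above background had a log2 difference of 0.06, so the probes disagree. The ferritin-like gene fthl27 was 2.89-fold higher on its brightest probe, and its other 6 measured probes had log2 differences of 0.96 to 1.51. That brightest probe read 4939 in Fli1 cells and 4292 in whole embryos at 18 hpf, and 1917 in Fli1 cells at 28 hpf. In Fli1 cells at 28 hpf the brightest probe of fth1a stood at 10838. Biliverdin reductase, blvrb, was 2.1-fold higher, and the iron exporter slc40a1 stood at 426 and 332 and was not called. The gene glrx5 had a log2 difference of 0.91 on its brighter probe and was not called. Its other probe read -3.04, with 612 in whole embryos and a level below background in Fli1 cells, so its probes disagree. The members alas1, alad, fech and blvrb were named after their values were seen, to give the pathway in order, and glrx5 for the conflict between its probes.

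Regulators and membrane genes of the red cell were mixed, with 2 of 10 higher, 2 lower and a median log2 difference of 0.72. Each share was 20%, beside 5.41% higher and 9.75% lower of all genes. The zinc finger gene drl, expressed in lateral plate mesoderm and early blood, was 5.46-fold higher at 3244 against 594. The carbonic anhydrase gene cahz of red cells was at least 2.3-fold higher, with 614 in Fli1 cells and a level below background in whole embryos. The master regulator of the lineage, gata1a, was at 439 and 278, and klf17, a regulator of embryonic erythropoiesis that the hatching gland also uses, at 616 and 335, and neither was called. Lower were nt5c3a, a nucleotidase of maturing red cells (at least 1.63-fold), and tmod4, an actin-capping gene best known from muscle (364 against 731).

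Of 10 endothelial and angioblast genes measured, 1 was called higher (10%, beside 5.41% of all genes) and none lower, and 9 had a difference above 0 (median log2 difference 0.62). The called gene was tek, the receptor for angiopoietins, with a level of 762 in Fli1 cells and 283 in whole embryos at 24 hpf (2.7-fold). On the other arrays tek stood at 392 in Fli1 cells and below background in whole embryos at 18 hpf, at 919 in Fli1 cells at 28 hpf and at 446 in Flk cells. All 4 sorted arrays thus lay above both whole-embryo arrays for tek. The LIM-domain factor lmo2 (638 and 328) and the bHLH factor tal1 (1152 and 668), shared by blood and vessel precursors, were 1.94-fold and 1.72-fold above whole embryos and stayed under the threshold. The VEGF receptor gene kdrl gave 434 and 271 on its single probe above background. The reporter's own gene, fli1, was below background on both arrays with both of its probes, at 254 and 226 on the brighter, so the array does not check the sort directly. No probe was found for tie1, cdh5 or etv2. The receptor gene acvrl1 went the other way, at 368 in whole embryos and below background on all 4 sorted arrays.

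Genes that set apart arteries from veins gave 0 higher and 1 lower of 10 (median 0.19), and those of VEGF and Notch signalling 0 higher and 1 lower of 11 (median 0.39). The lower shares, 10% and 9.09%, were near the 9.75% of all genes. The venous receptor gene ephb4a (846 and 671) and notch1b (879 and 561), which acts on the arterial side, differed by less than 2-fold. The lower gene of the VEGF and Notch list was her2, a hairy-related repressor gene, with 1294 in whole embryos and a level below background in Fli1 cells (at least 4.21-fold). The lower gene of the arterial and venous list was tbx20, better known from the heart, at 361 against 1110.

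Of the myeloid and progenitor genes, 1 of 12 was higher and 1 lower (median 0.28). Each share was 8.33%, beside 5.41% higher and 9.75% lower of all genes. The lysozyme gene lyz, an early marker of primitive macrophages and neutrophils, had a level of 11135 in Fli1 cells and 2952 in whole embryos at 24 hpf (3.77-fold). It was below background in whole embryos at 18 hpf, 1251 in Fli1 cells at 18 hpf, 13341 in Fli1 cells at 28 hpf and 929 in Flk cells. Apart from lyz and ctsk, none of the 12 was called. The granulocyte peroxidase mpx stood at 497 and 375, the macrophage gene mfap4.1 at 2208 and 1287, and the regulator spi1b at 428 against a level below background, whereas nccrp1 was at 1528 against 3028. The lower member was ctsk, a protease of osteoclasts, at least 1.47-fold lower.

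Neural crest and pharyngeal arch genes gave 1 higher and 1 lower of 17, with a median log2 difference of 0.53. Each share was 5.88%, beside 5.41% higher and 9.75% lower of all genes. The endothelin receptor gene ednrba was at 396 in Fli1 cells and below background on the other 5 arrays (at least 1.48-fold). The melanin enzyme dct was at least 1.67-fold lower, at 514 in whole embryos. Factors of the arches were not called and went both ways. The levels were 2174 and 1172 for tbx1, 1355 and 788 for nkx3-2, and 369 against a level below background for dlx2a, while dlx5a was below background in Fli1 cells and at 349 in whole embryos. Of the 17 members, 5 had a difference below 0. Of the other crest markers, tfap2a was at 371 in Fli1 cells and below background in whole embryos on its brightest probe, and was not called. The markers sox10 and foxd3 were below background on both arrays and crestin had no probe.

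**Figure D2:**
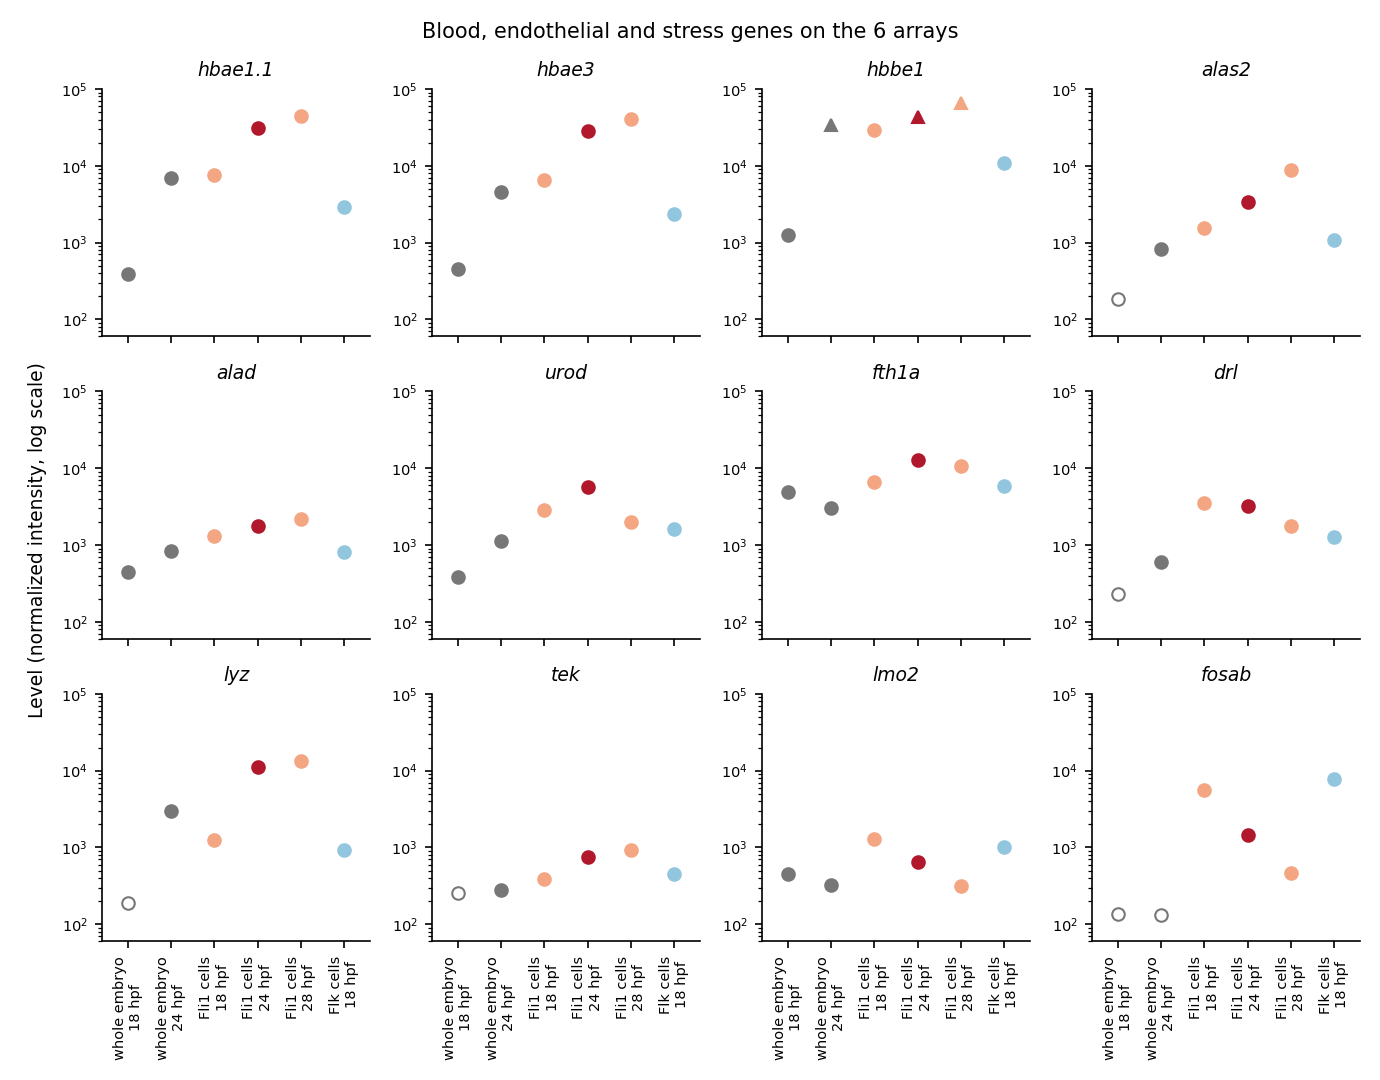
Level (normalized intensity, log scale) of 12 blood, endothelial and stress genes on each of the 6 arrays, 1 point per array, with filled circles above background, open circles below it and triangles saturated. For alas2 and tek the Fli1 arrays go from 1528 at 18 hpf to 8844 at 28 hpf and from 392 to 919, and fosab is below background on both whole-embryo arrays.

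Of 30 immediate early and stress genes measured, which stressed or activated cells induce, 7 were higher and 2 lower (median log2 difference 0.68). The shares were 23.3% and 6.67%, beside 5.41% and 9.75% of all genes. Of the 30, 28 were above background in Fli1 cells against 23 in whole embryos. Of all 4788, 484 were above it in Fli1 cells alone and 1116 in whole embryos alone. The AP-1 subunit gene fosab had a level of 1439 in Fli1 cells and was below background in whole embryos (at least 5.39-fold). It stood at 5660 in Fli1 cells at 18 hpf, 459 at 28 hpf and 7720 in Flk cells, so the 4 sorted arrays spanned 459 to 7720. The inducible chaperone gene hsp70.3 was at 1740 in Fli1 cells at 24 hpf and below background on the other 5 arrays (at least 6.52-fold), and its other 2 probes had log2 differences of 2.48 and 1.57. The polyamine acetyltransferase gene sat1a.2 was 6.29-fold higher at 6898 against 1096. The survival factor mcl1a was 2.56-fold and the growth arrest gene gadd45ab at least 2.32-fold higher. Lower were ier5l (1089 against 4506) and, on 1 of 3 measured probes, the mitochondrial chaperone hspd1 (563 against 1187). The summed level of the 30 genes was 32363 in Fli1 cells and 22675 in whole embryos at 24 hpf, and 22388 to 37997 on the other sorted arrays against 17818 in whole embryos at 18 hpf. Its part in the differences of other groups was not tested.

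Genes outside the lists given so far, some of them members of other lists, had differences of like size. The gene phlda2, whose product carries a PH domain, was at 4250 and 688 (6.18-fold), and the checkpoint clamp gene rad1 at 1947 and 365 (5.34-fold). The Golgi regulator arfgap1 was 4.49-fold, the small GTPase gene rab42a 3.87-fold, the splicing factor gene snrnp25 3.75-fold and the glycolytic entry enzyme hk1 3.48-fold higher, with a log2 difference of 0.75 on the other measured hk1 probe. The RNA-binding gene lin28ab was 3.61-fold higher at 24 hpf, at 1941 against 538, but read 1232 in Fli1 cells and 2331 in whole embryos at 18 hpf. The ubiquitin-activating enzyme uba1 was 3.85-fold higher on its brightest probe, while its other 3 measured probes had log2 differences of -0.12 to 0.55. Among the bounds, gnb3b, a G protein subunit gene of photoreceptors, was at least 7.63-fold higher on 1 probe, and its other measured probe had a log2 difference of 0.01. The ciliary gene drc2 (at least 3.98-fold), klhl24b (at least 3.8-fold), the growth factor binding gene igfbp1a (at least 3.26-fold) and the serotonin synthesis gene tph1b (at least 2.41-fold) exceeded background in Fli1 cells at 24 hpf and on none of the other 5 arrays. In all, 16 of the 111 named higher genes were above background on that array alone, and 55 were above it on all 6. A higher call required a level above background on that array, so these counts do not show whether either is unusual. With unnamed probes, 35 were called higher and above background there alone, and 8 of them, klhl24b and tph1b included, lay in 1 of the 32 print blocks, which held 164 of the 4788 analysed. The gnb3b probe with the large bound lay in that block too, and it was also above background in Flk cells. The part of spot position in these calls was not tested.

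Epidermal genes were lower in Fli1 cells. Of 25 genes of the epidermis and periderm measured, 14 were lower and 1 higher, with a median log2 difference of -1.14 beside 0.11 for all genes. The shares were 56% lower and 4% higher, beside 9.75% and 5.41% of all genes. All 25 were above background in whole embryos and 17 in Fli1 cells. Of all 4788 genes and probes, 3188 were above it on both arrays and 1116 in whole embryos alone. The periderm keratin krt4 had a level of 1057 in Fli1 cells and 14130 in whole embryos at 24 hpf (13.4-fold), against 1181 and 1740 at 18 hpf, 4447 in Fli1 cells at 28 hpf and 1035 in Flk cells. The whole embryo at 24 hpf was thus the highest of the 6, and its lead was narrower at 18 hpf. The other 2 measured probes of krt4 had log2 differences of -2.74 and -1.63. The ictacalcin gene icn was at 2753 against a saturated 44204 (at least 16.1-fold), and the keratin krt5 at 4178 against a saturated 45148 (at least 10.8-fold). On its other 4 measured probes krt5 had log2 differences of -1.90 to -2.74. The cornified-envelope gene ppl stood at 1921 in whole embryos and was below background on all 4 sorted arrays (at least 6.25-fold). The keratin krt92 was 7.15-fold lower. Of the other epidermal markers, cdh1 was below background on both arrays, and tp63 and epcam had no probe.

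Not all epidermal genes followed. The claudin cldn7b, a tight junction gene, was at 398 and 269, and the simple keratins krt18a.1 (2934 and 2587) and krt18b (1037 and 954), which other epithelia and the notochord also use, were near even. Both were named after their values were seen. The keratin krt91 was called higher at 1398 against 693 on its brightest probe, yet 7 of its 16 measured probes were 2-fold or more lower, with log2 differences down to -3.95. Keratin genes lie in families of close copies, and the single call for krt91 is uncertain. Without the 3 genes saturated on any array, the summed level of the list was 22007 in Fli1 cells and 68975 in whole embryos at 24 hpf, and 24501 to 27823 on the other sorted arrays against 57962 in whole embryos at 18 hpf. In bulk RNA, fewer cells of a type and less RNA per cell cannot be told apart, here and for the groups that follow.

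Genes of the yolk layer, liver and gut were lower in 16 of 33 measured members and higher in none (median log2 difference -0.78). The lower share was 48.5%, beside 9.75% of all genes. The fatty acid binding gene fabp1b.1 was at 5330 in whole embryos and below background on the 4 sorted arrays (at least 17.3-fold). The retinol carrier rbp4 was at 3539 in whole embryos at 24 hpf and below background on the other 5 arrays (at least 11.5-fold). The main apolipoprotein of high-density lipoprotein, apoa1a, was 16.8-fold lower at 331 against 5558, and on the other sorted arrays it read 335 to 539. Of these 3 genes only apoa1a was above background on the sorted arrays, so a shared pattern across them cannot be read. The sialic acid synthase gene nansa was 8.37-fold lower on its brightest probe, with log2 differences of -0.63 and -1.02 on its other 2 measured probes. The selenoenzyme gene gpx4b was 2.04-fold lower, whereas pck2 (1024 and 649) and the elastase cela1.1 (350 against a level below background) were not called.

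Genes of plasma proteins, many of them products of the liver in the adult, were lower in 5 of 8 genes (median log2 difference -1.83). That is 62.5%, beside 9.75% of all genes. The 3 chains of fibrinogen were all among the lower genes, each below background in Fli1 cells. The gamma chain fgg was at 1910 in whole embryos (at least 6.22-fold), the beta chain fgb at 1592 (at least 5.18-fold) and the alpha chain fga at 674 (at least 2.19-fold). Ceruloplasmin, cp, was at least 2.59-fold lower. Coagulation factor genes f7 (410 and 345) and f9a (418 and 404) were near even and close to background.

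Enzymes of gluconeogenesis, glycolysis and one-carbon metabolism were split, with 11 of 40 lower and 1 higher (median -0.23). The shares were 27.5% and 2.5%, beside 9.75% and 5.41% of all genes. The gluconeogenic phosphatase fbp1b was at 5759 in whole embryos and below background in Fli1 cells, and its other measured probe had a log2 difference of -0.65. The homocysteine methyltransferase bhmt stood at 397 and 12730 (32-fold), and its other 2 probes had log2 differences of -5.14 and -5.72. The purine synthesis genes paics (944 against 4763) and gart (at least 2.01-fold) were lower as well, although the other 2 measured probes of paics were at -1.92 and 0.43. The glycolytic enzyme gene gapdhs was at 918 and 509 and was not called, and hk1 was the higher member. The alcohol dehydrogenase adh8b, in no list, was 10.3-fold lower at 484 against 4992.

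Genes of skeletal muscle were lower in 16 of 43 and higher in 1 (median -0.73). The shares were 37.2% and 2.33%, beside 9.75% and 5.41% of all genes. Of the 43, 28 were above background in Fli1 cells against 41 in whole embryos, while 1116 of all 4788 were above it in whole embryos alone. The fast troponin C gene tnnc2.2 was 9.11-fold lower at 384 against 3495, and the calcium buffer pvalb2 at least 6.96-fold lower, with 2138 in whole embryos at 24 hpf. The muscle creatine kinase gene ckma was at 1580 in whole embryos at 24 hpf and below background on the other 5 arrays (at least 5.14-fold). The slow troponin C gene tnnc1b was 5.54-fold and the light chain gene myl13 7.6-fold lower. Of the other muscle markers, mylpfa was lower on its brightest probe, at 753 against 1528. The marker myod1 was below background in Fli1 cells and at 479 in whole embryos, and was not called. The marker acta1b went the other way on its brightest probe, at 1390 in Fli1 cells and 881 in whole embryos, and was not called. The calcium pump of the sarcoplasmic reticulum, atp2a1, was 6.18-fold lower at 1816 against 11216, with log2 differences of -0.02 to -2.29 on its other 5 measured probes. At 18 hpf the same probe read 653 in Fli1 cells and was below background in whole embryos. The higher member at 24 hpf was csrp3, a Z-disc protein gene, at 2133 against 1022 (2.09-fold). The gene ldb3a, of the same structure, was at 470 against a level below background without being called. As a list, the 43 did not lie lower at 18 hpf. Their median there was 0.32, with 6 higher and 2 lower, beside 10.9% higher and 14.4% lower of all genes.

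**Figure D3:**
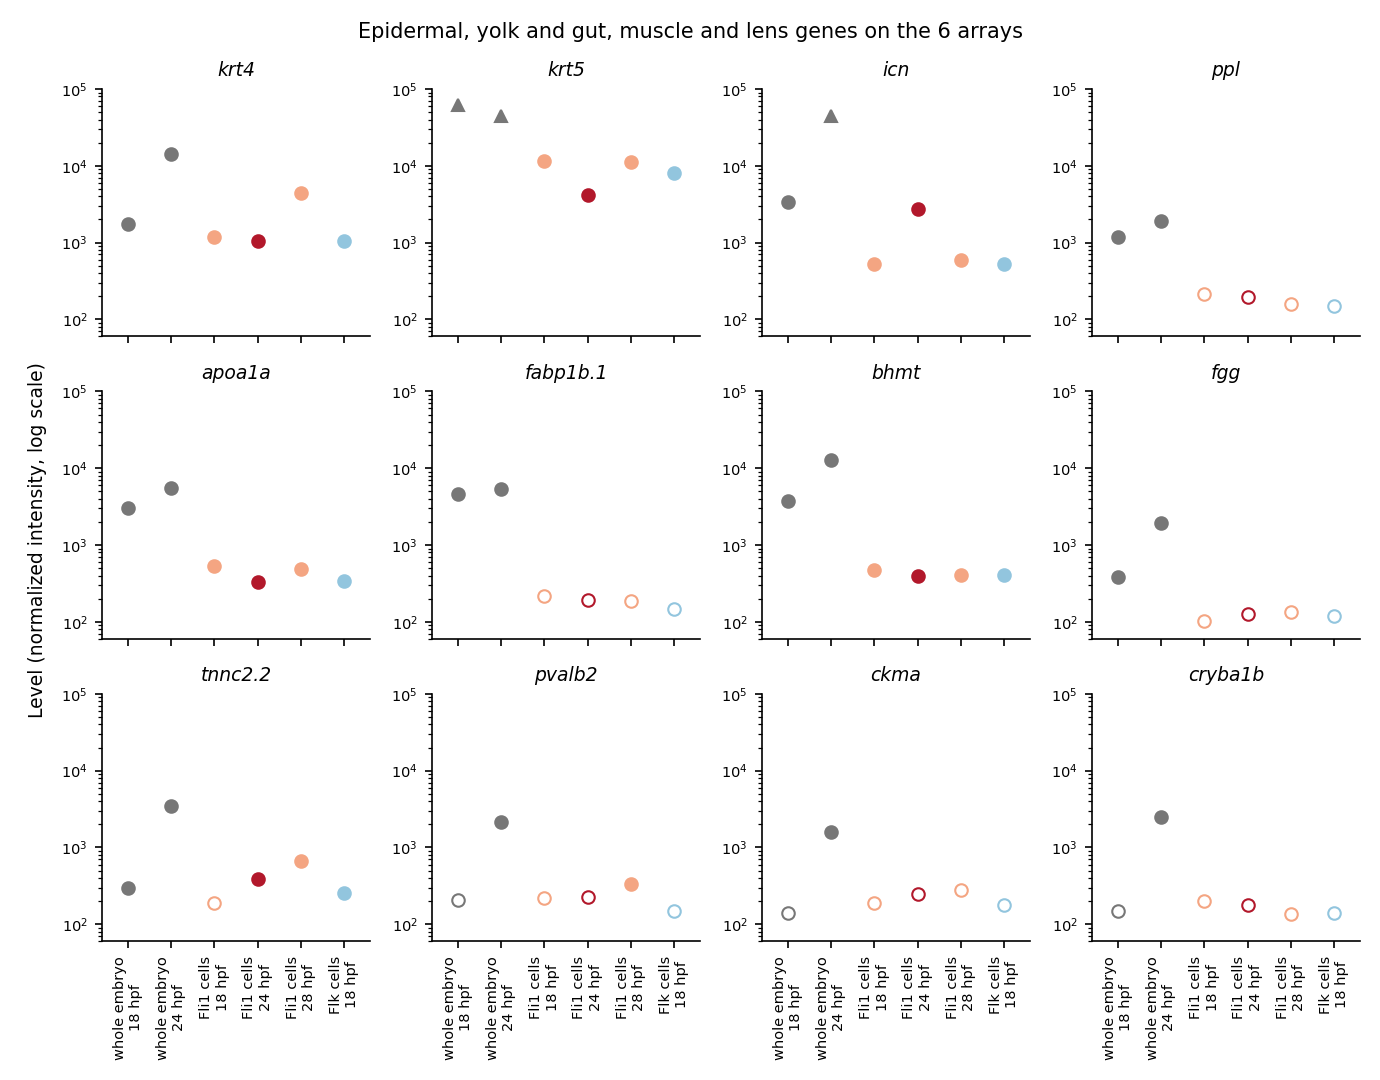
Level (normalized intensity, log scale) of 12 epidermal, yolk, plasma, muscle and lens genes on each of the 6 arrays, 1 point per array, with filled circles above background, open circles below it and triangles saturated. The whole-embryo array at 24 hpf is the highest of the 6 for krt4, apoa1a, fgg and tnnc2.2, with 14130, 5558, 1910 and 3495, and ckma and cryba1b are above background there alone.

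Of 8 heart muscle genes, 3 were lower and 1 higher (median -0.54). The shares were 37.5% and 12.5%, beside 9.75% and 5.41% of all genes. The cardiac light chain gene cmlc1 was 8.12-fold lower at 348 against 2822, and its other measured probe was at -1.29. The heart field factor nkx2.7 was lower on a level close to background, and hand2 was at 778 and 493. The higher member, tpm4a, was 2.05-fold higher on its brightest probe, with -0.82 and 0.01 on the other 2, so its direction is uncertain. At 18 hpf the 8 heart genes had a median of 0.69, with 2 higher and 2 lower. The lens crystallin cryba1b was at 2515 in whole embryos at 24 hpf and below background on the other 5 arrays (at least 8.19-fold), and cryba2b was 3.05-fold lower. These were 2 of 3 lens and otic genes measured.

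Neural genes were not lower as a group, with 3 of 39 higher, 5 lower and a median of -0.02. The shares were 7.69% higher and 12.8% lower, beside 5.41% and 9.75% of all genes. Regional and glial genes made up the lower ones, otx2a of the forebrain and midbrain (at least 2.22-fold), the retinoid binding gene crabp1a (at least 2.57-fold), the radial glia gene fabp7a (at least 1.78-fold), mab21l2 of the eye (at least 1.11-fold) and sox3 of neural progenitors (at least 1.73-fold). The proneural gene neurog1 was 2.39-fold higher at 1108 against 463, and irx7 at least 1.96-fold higher. The pan-neuronal gene elavl3 stood at 1180 and 886. Of 39 neural genes, 25 were above background in Fli1 cells and 36 in whole embryos. Of all 4788 genes and probes, 3188 were above it on both arrays and 1116 in whole embryos alone. The markers sox2, pax6a and neurod1 were below background on both arrays. Pronephric genes gave 2 higher (20%) and 1 lower (10%) of 10 (median 0.32), with the sodium pump subunits split between atp1b1a (at least 1.91-fold higher) and atp1a1a.2 (at least 1.54-fold lower).

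**Figure D4:**
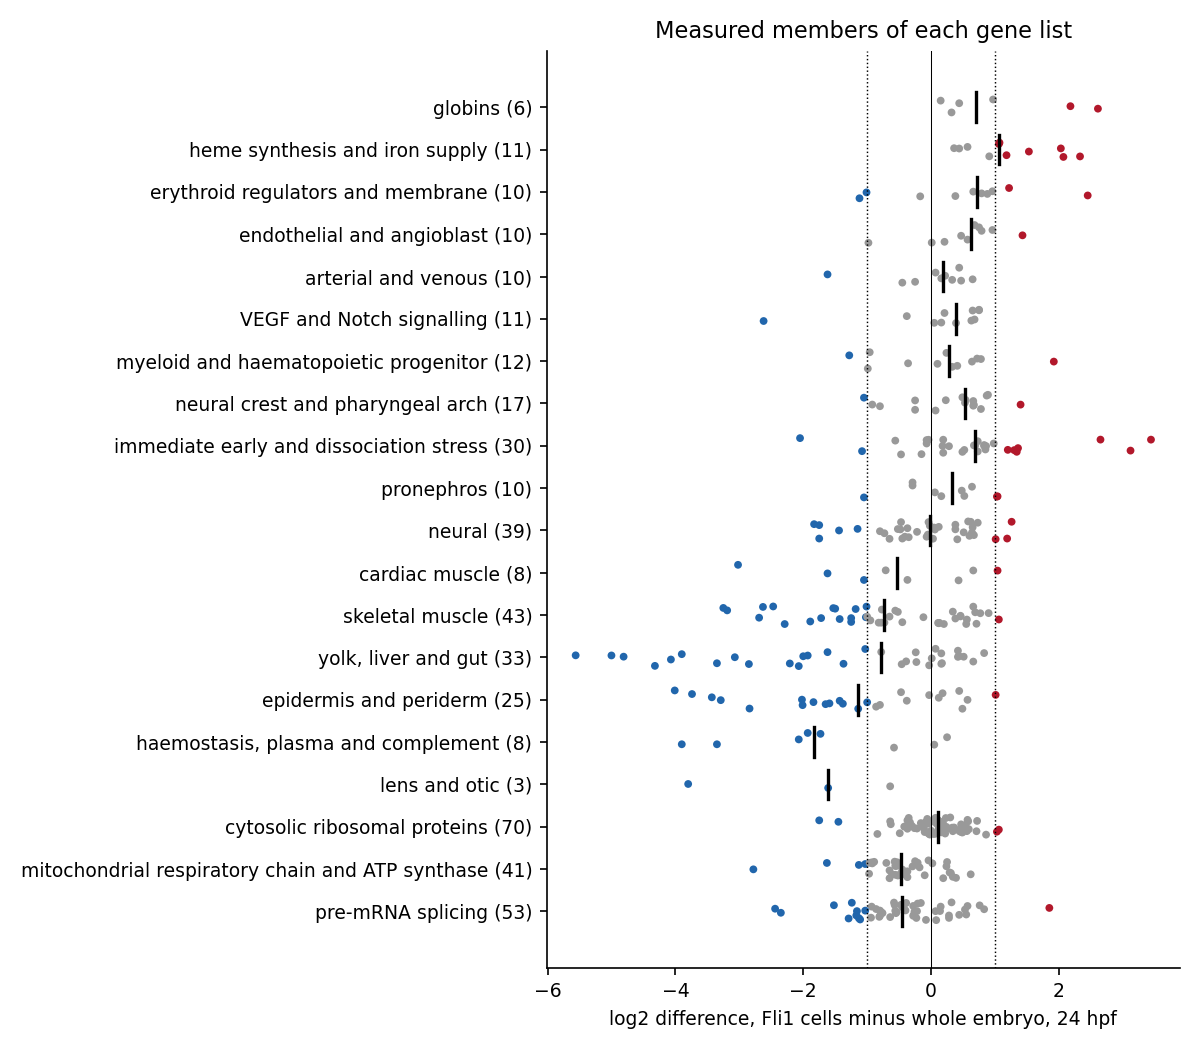
Log2 difference between Fli1 cells and whole embryos at 24 hpf (horizontal axis) for each measured member of 20 gene lists, with the number measured in brackets, the list median as a bar and the 2-fold limits as dotted lines. Red points are called higher and blue points lower. The median of heme synthesis and iron supply is 1.07, and those of epidermis and of plasma proteins are -1.14 and -1.83.

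Genes used by every cell were compared to see how far the arrays agreed outside cell-type genes. The cytosolic ribosomal proteins gave 2 higher and 2 lower of 70, each 2.86%, beside 5.41% and 9.75% of all genes. Their median was 0.11, the value of all genes. This median was -0.01 when arrays were scaled to their 75th percentile and -0.08 with the scaled value table. Of the 70, 26 were saturated on at least 1 of the 6 arrays, and saturation can hide a difference. The 64 not saturated on both 24 hpf arrays also had a median of 0.11. The lower members rps6 and rpl27a rested on 1 probe each, since the other 6 measured probes of rps6 had log2 differences of -0.35 to 0.53. Translation factors gave 1 higher (2.17%) and 3 lower (6.52%) of 46, both under the shares of all genes. Their median of 0.21 turned to -0.14 and -0.21 under the same scalings. The higher member was eif4g2a (1140 against 498).

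The respiratory chain and ATP synthase genes of the nucleus were lower in 4 of 41 and higher in none (median -0.47), with 32 of the 41 differences below 0. The share of lower members, 9.76%, was that of all genes (9.75%). The complex I subunit genes ndufa1 (906 against 6230, 6.88-fold), ndufs3 (1152 against 3557) and ndufb8 (1483 against 3021) were lower, as was cox4i1 of complex IV (6185 against 13501). The calls for ndufb8 and cox4i1 rest on 1 probe each, as the other measured probes gave -0.86 and -0.38 for ndufb8 and -0.42 for cox4i1. At 18 hpf, 16 of the 41 were lower in Fli1 cells and none higher, beside 14.4% lower and 10.9% higher of all genes. Pre-mRNA splicing genes were lower in 10 of 53 (18.9%, beside 9.75% of all genes) and higher in 1 (median -0.45). The core particle gene snrpe was at least 5.25-fold lower, and hnrnpa1b at 8480 against a saturated 43104 (at least 5.08-fold), while srsf9 was at least 2.27-fold higher with 606 in Fli1 cells and a level below background on the other 5 arrays. Proteasome genes gave 1 higher and 1 lower of 37 (median -0.29), with the inducible activator subunit psme2 (at least 1.47-fold) as the higher and psma5 (at least 2.38-fold) as the lower. The respiratory and splicing lists kept a median below 0 under both other scalings.

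Cell cycle and DNA replication genes gave 3 lower and 0 higher of 42 (median -0.24), and the 7.14% lower lay under the 9.75% of all genes. The lower members were the replication clamp pcna (1835 against 4479, and -1.27 on its other probe), the mitotic kinase plk1 (971 against 2509, with -2.49 and 0.78 on its other measured probes) and the kinetochore gene ndc80 (422 against 844, with 0.34 on its other measured probe). Lysosomal genes gave 6 lower (24%, beside 9.75% of all genes) and 0 higher of 25 (median -0.23). The lower ones were led by the sterol carrier npc2.1 (7.22-fold), ctsba (3.08-fold, with -0.14 to -2.21 on its other 5 measured probes), ctsd (2.73-fold) and ctsh (at least 2.53-fold). Chaperones and the secretory pathway gave 1 higher and 6 lower of 67 (8.96% lower, beside 9.75% of all genes). Among the lower were the unfolded protein response factor xbp1 (698 against 1520) and, on 1 of 5 measured probes, the chaperonin subunit cct6a (601 against 1620). Genes of the extracellular matrix gave 1 higher (6.25%) and 2 lower (12.5%) of 16, beside 5.41% and 9.75% of all genes. The collagen gene col1a2 (340 against 1065) and the collagen chaperone serpinh1b (at least 4.34-fold) were lower. The laminin gene lama5 was at least 1.28-fold higher. The posterior gene hoxc11a was the single called member of 13 hox genes and was 4.01-fold lower at 505 against 2029. That share, 7.69%, lay under the 9.75% lower of all genes.

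The genes called at 24 hpf were then read on the other sorted arrays, each against whole embryos at 18 hpf. These 3 pairs share that whole-embryo array, and the pair at 28 hpf also differs in age. All these arrays had entered the normalization and the choice of probe. A higher call required a level above background in Fli1 cells at 24 hpf and a lower call one in whole embryos, whereas the 4788 needed it on either array. The shares of all 4788 are thus not matched for level. Of the 259 higher at 24 hpf, 34.7% were higher in Fli1 cells at 18 hpf, where 10.9% of all 4788 were, 41.3% in Fli1 cells at 28 hpf (16.4% of all) and 34.7% in Flk cells (6.81% of all). Of the 467 lower, 37.7% were lower in Fli1 cells at 18 hpf (14.4% of all), 45.6% at 28 hpf (19.4% of all) and 26.8% in Flk cells (7.33% of all). The opposite call was made for 9, 16 and 3 of the 259 and for 12, 29 and 21 of the 467, in the same order. The median log2 difference of the higher genes was 0.62, 0.81 and 0.66 in these pairs, that of the lower genes -0.72, -0.91 and -0.39, and that of all 0.00, 0.07 and 0.04.

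**Figure D5:**
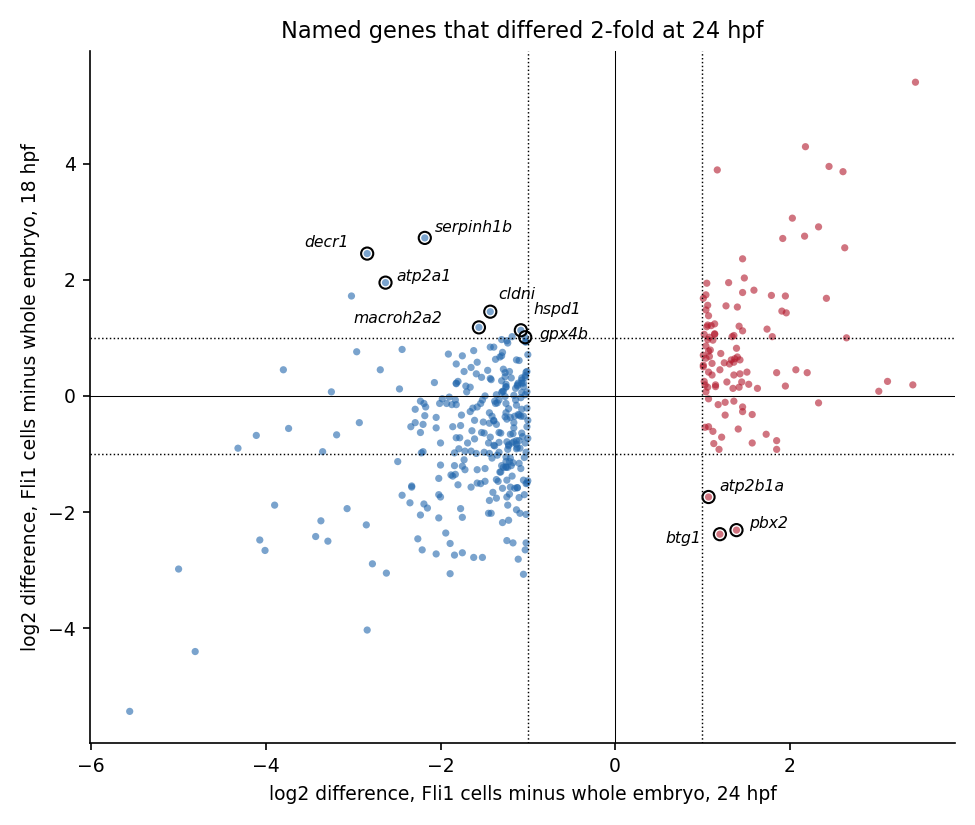
Log2 difference between Fli1 cells and whole embryos at 24 hpf (horizontal axis) and at 18 hpf (vertical axis) for the 111 higher (red) and 293 lower (blue) named genes, including values from spots below background at 18 hpf. Dotted lines mark 2-fold, and the 10 circled genes differ 2-fold in opposite directions at the 2 stages.

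More than 1 probe bore on 95 of the named genes that were called. Of 23 higher genes with another probe above background, 18 had all such probes on the same side of 0, and of 72 lower genes 61 did. In the authors' deposited table, which sets Fli1 cells at 24 hpf against the mean of both whole-embryo arrays on their own scaling, the log2 of the ratio was 3.46 for hbae3, 2.98 for urod and 2.57 for lyz, and -5.07 for bhmt, -4.51 for apoa1a and -3.57 for krt4. This ratio was read only for the genes picked by the naming rule given below, not for all 111 named higher genes. Among those picked and called higher here, it lay below 0 for 4. They were btg1 (-1.0), atp2b1a (-0.58), lin28ab (-0.19) and irx7 (-0.17).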

How the data were processed

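Per the labels' protocols, a flow sorter collected the GFP-positive cells, the AmpTec ExpressArt Nano kit amplified the RNA in 2 rounds, and copies were labelled with Cy3. Per the file headers, the deposited scanner files give spot and local background intensity at scan settings 45, 55 and 65 and a flag score per spot, whose codes are not given in the sources used here. The authors also deposited an intensity joined over the settings and, as a ratio, that intensity divided by 1 number per array, which is the linear, uncentred value table (column medians 0.801 to 0.922, equal to the scanner column within 4.3e-07), and a ratio of Fli1 cells at 24 hpf over the mean of both whole-embryo arrays. The scanner and image software are not given in the sources used here.

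Intensity at setting 55 was corrected with normexp (offset 50) and quantile normalized on the log2 scale over 6 arrays (limma 3.58.1, R 4.3.3). The 68 probes that carried a flag entered the normalization and were left out after it. Of 14784 spots, 14067 were zebrafish probes, 544 empty and 173 Arabidopsis controls. Names came from the RefSeq table (assembly GRCz12tu, names only), with 7703 probes matched through the current accession, 23 through an older one, 416 by clone, 220 by a shared description and 1 by its own description, and 5704 unnamed. The gene fli1a stands under the symbol fli1. The probe with the highest mean level stood for a gene. The number of arrays, 1 per group, limits the precision, and only differences and bounds were computed, after a check on simulated data. The other 18 columns of per-sample values were not used.

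The comparison, the gene lists and the members were chosen with earlier results of these data known. Named genes are the 15 with the largest measured difference on each side, the 8 with the largest bound on each side, the 4 members of each list with the largest difference in its main direction and 2 in the other, the reporter genes, and genes called in opposite directions at 24 and 18 hpf. Cell type markers and the few other members named were added to this, the latter after their values were seen. Some members that the rule names are not reported here. Alternatives changed the scaling, the background correction, the scan setting, the probe rule, the filters, the background limit and the fold.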

Additional observations from a re-analysis of the deposited data

Results flagged for a closer look

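At both 24 and 18 hpf, 10 named genes differed 2-fold or more between Fli1 cells and whole embryos, in opposite directions. Each pair is 1 array a side, and the difference between the stages was not tested. Of these, 7 were lower in Fli1 cells at 24 hpf and higher at 18 hpf. The muscle calcium pump atp2a1 had log2 differences of -2.63 at 24 hpf and 1.95 at 18 hpf, and was below background in whole embryos at 18 hpf. The collagen chaperone serpinh1b had -2.18 and 2.72, with a level of 1334 in whole embryos at 24 hpf and below background at 18 hpf. The mitochondrial fatty acid enzyme decr1 had -2.84 and 2.45, the claudin cldni -1.43 and 1.45, and all 4 of these genes were below background in whole embryos at 18 hpf. In Fli1 cells at 24 hpf decr1 and serpinh1b were below background too, so their folds are bounds at both stages, at least 3.22 for decr1 and at least 4.34 for serpinh1b at 24 hpf. The histone variant macroh2a2 had -1.56 and 1.18, the chaperonin hspd1 -1.08 and 1.13, and the selenoenzyme gpx4b -1.03 and 1.01. In the other direction, the homeobox gene pbx2 had 1.39 and -2.31, the antiproliferative gene btg1 1.2 and -2.38, and the plasma membrane calcium pump atp2b1a 1.07 and -1.74. For pbx2 and btg1 the dim side was below background at both stages, and at 24 hpf their folds are at least 2.29 and at least 1.36. For atp2b1a the whole-embryo level was 1786 at 18 hpf and 557 at 24 hpf, and the Fli1 level 536 and 1172. Counting unnamed probes, 21 were called in opposite directions, and 5 of them lay in the same row of 1 of the 32 print blocks, at columns 7, 8, 9, 12 and 14. That block held 183 of the 4788 analysed. The 5 were decr1, serpinh1b, macroh2a2 and 2 unnamed probes, with log2 differences of -1.08 and 2.83 and of -1.26 and 1.71 for the latter. The part of spot position in these calls was not tested.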

How the results depend on the processing

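No paired analysis was possible because each group is 1 array and the labels give no replicate numbers. The 259 higher and 467 lower calls became 159 and 288 at scan setting 45, 161 and 161 with both arrays above background, 38 and 106 at 4-fold, and 239 and 787 with the scaled value table. The other alternatives gave 207 to 347 higher and 397 to 606 lower. Among them, quantile normalization on linear intensity (322 and 521) and leaving out spots that lose signal at the higher scan setting (259 and 465) were chosen after seeing the data. Under the mean over probes krt91 turned to -1.09 and tpm4a to -0.01, and at scan setting 65 or30bt4 turned to 0.81. Many more named genes counted as changed without being reversed. With the scaled value table these were 78, against 139 that counted as the same. They were 62 under the mean over probes, 51 at scan setting 45 and 47 under 75th percentile scaling. The medians of ribosomal proteins, translation factors, small GTPases, chromatin, aminoacyl-tRNA synthetases, extracellular matrix, hox and hatching gland genes changed sign with the scaling. The cause of these shifts was not tested. Without replicates, differences near 2-fold and levels near background are the least certain.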

Other observations

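Among the unnamed probes, the array carries some that are described as transcripts of the mitochondrial genome. They were picked after their values were seen and support no comparison. The probe for cytochrome c oxidase subunit I had a level of 24273 in Fli1 cells and 3835 in whole embryos at 24 hpf (6.33-fold higher). It read 2005 in whole embryos and 24070 in Fli1 cells at 18 hpf, 15937 in Fli1 cells at 28 hpf and 32427 in Flk cells, so that all 4 sorted arrays lay above both whole-embryo arrays. The probe for NADH dehydrogenase subunit 6 was at 2213 and 793 at 24 hpf, that for subunit 5 at 2471 and 1145, and that for subunit 1 at 6578 and 6185.

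The lower call for or30bt4, an odorant receptor gene, rests on a spot that behaved oddly between scans. On the whole-embryo array its signal was 1505, 9518 and 538 at scan settings 45, 55 and 65, while on the Fli1 array it was 52.5, 204 and 653. The spot of cux1b, also called lower, read 863, 3041 and 807 on the whole-embryo array. Over the spots above background on each array, the median ratio of the signal at setting 65 to that at setting 55 was 3.31 to 3.32.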
